A study of Mus musculus with 12 samples.

Results

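The Sfmbt2-type repeat family is a group of closely related rodent miRNAs, and 41 of the 696 mouse miRNA names on the arrays belong to it. Its members were chosen by name alone, as every name that starts with miR-297, miR-466, miR-467 or miR-669 with any letter, arm or version suffix. The names comprise 3 of miR-297, 14 of miR-466, 10 of miR-467 and 14 of miR-669, and 18 carry the suffix 5p, 13 the suffix 3p and 10 no arm. They are measured by 112 of the 1937 miRNA probes, which fill 820 of the 13920 miRNA spots of an array.

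Most hairpins of the family lie in tandem in an intron of Sfmbt2, an imprinted mouse gene for a Polycomb-group protein that is best known for its part in the placenta. The cluster grew by repeated duplication in rodents, so its mature miRNAs resemble each other and many hold runs of alternating bases. A mature miRNA guides Argonaute proteins to messenger RNAs mainly through its seed, the short stretch near its 5′ end, so members with different seeds can address different messenger RNAs.

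The study asked how the miRNAs of the retina, the light-sensing tissue, and of the sclera, the outer coat of the eye, differ in form-deprivation myopia. C57BL/6J mice wore a frosted diffuser, which blurs the image, over the right eye from postnatal day 24 for 10 days, and the untreated left eye served as control. The 4 groups were control retina, myopic retina, control sclera and myopic sclera, all from mice aged 34 days, with 3 arrays in each group. The labels name single mice with the same identifiers in every group, whereas the extraction protocol describes pools of 3 eyes, so each array is called a pool here and stands for a mixture of animals.

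The values are total gene signals, in which the image analysis software adds up background-subtracted fluorescence over those probes of a name that it detects. A name with none of its probes detected carries a fixed value of 0.1 and is called undetected below. For control retina 1 to 3 the 75th percentile of the total signals was 148, 120 and 124, and for myopic retina 1 to 3 it was 181, 233 and 137. Myopic retina 2 was thus the brightest retina array. None of the spots for miRNAs reached saturation, and precision is limited by the 3 arrays in a group. The 4 arrays of a pool number shared a slide, and a group always had the same place on its slide, so place and group cannot be told apart.

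Most probes of the family are built from a repeat. A probe is complementary to its miRNA. In the longest probe of each name, the letters CACACA or ACACAC occurred in 14 members and GTGTGT or TGTGTG in 16, which are called repeat class 1 and repeat class 2 below, and 11 members held neither. Only the strand printed was searched, and no longest probe held letters of both classes. Of the 655 other names on the array 2.60% held either kind, against 73.2% of the family. These classes were formed after the values had been seen. Probes of class 1 from members described below, written 5′ to 3′ with the repeat in capitals, are as follows.
miR-669n: ACACACAtcCACACACAa
miR-466h-5p: tACACACAagcacatgcac
miR-466c-5p: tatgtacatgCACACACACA
miR-669a: acatgaacatgCACACACAa
miR-669b-5p: acatgcacatgCACACA
miR-669l-5p: acatatacatgCACACAC

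Probes of class 2, again with the repeat in capitals, and probes without such a run are shown because these kinds differed across the retina arrays.
miR-466f-3p: GTGTGTaTGTGTGTGTG
miR-466i-3p: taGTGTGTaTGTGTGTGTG
miR-467f: tgtagGTGTGTGTGTGT
miR-466g: TGTGTGTGcatgtgtc
miR-669f-3p: atacGTGTGTGTGTatgta
miR-467b-5p: catatacatgcaggcact
miR-467c-5p: cacatatacatgcacgcac
miR-467e-5p: acatatacatgctcacact

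RefSeq (GRCm38.p6) held a mature sequence under the array's name for 6 members. Those of 4 members described below are given 5′ to 3′ with the seed, bases 2 to 8, in capitals.
miR-669n: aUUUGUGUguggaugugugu
miR-466i-3p: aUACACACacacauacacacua
miR-467f: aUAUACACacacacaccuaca
miR-466j: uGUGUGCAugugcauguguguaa

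Together with the seeds printed in a supplementary table of the study, a seed was known for 13 members, 1 of which (miR-467a-5p) appears there only as the name of a seed group. These 13 had 12 different seeds, and the only seed shared within the family was GUGUGCA, by miR-466h-5p and miR-466j. The other members named by the study for the myopic retina had the seeds ACGUGUG (miR-466f-5p), AGUUGUG (miR-669o-5p), AAGUGCG (miR-467c-5p), GUUUUGU (miR-669b-5p) and GUCUUGU (miR-669e-5p). Of the 527 names outside the family with a known seed, 1 shared a seed of a member, namely miR-290-3p, which the study's table lists with miR-467a-5p under AAGUGCC. The table names the group of miR-669e-5p after miR-331-5p, whose RefSeq mature sequence has another seed (UAGGUAU).

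MiR-467a-5p had signals of 9.54 and 10.5 on control retina 2 and 3 and of 6.59 and 10.7 on myopic retina 1 and 2, and was undetected on the other arrays. MiR-290-3p was detected on all 12 arrays, with 26.8, 17.9 and 29.5 in the control retina and 21.7, 25.0 and 20.5 in the myopic retina, so these groups overlapped.

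In the annotation of the array (mouse build mm9), 36 members had a probe match on chromosome 2 between positions 10388586 and 10439867, a stretch of 51.3 kb. The other 5 matched elsewhere, namely miR-466i-3p on chromosome 13, miR-466j on chromosome 10, miR-466k on chromosome 3, miR-467f on chromosome 11 and miR-467g on chromosome 5. MiR-669n matched both chromosome 2 and chromosome 3. In RefSeq (GRCm38.p6), 71 of 81 genes of the family lie within Sfmbt2. For 15 members the annotation listed several places or ended before its list was complete, and up to 8 places were listed for miR-466b-5p and miR-669a. The probes of 8 members were assigned to several mature miRNAs. Those of miR-669b-5p were also assigned to miR-297a-5p and miR-466f, and those of miR-669n to miR-669c-5p. A signal is therefore that of a probe set and cannot be assigned to a single hairpin.

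Of the 41 members, 33 were detected on at least 1 array and 8 on none (miR-466a-5p, miR-466d-5p, miR-466k, miR-466l-3p, miR-467d-5p, miR-669g, miR-669j and miR-669k-3p). On all 12 arrays 4 members were detected, namely miR-466f-3p, miR-467f, miR-669f-3p and miR-669n, and on all 6 retina arrays 15 were. For the whole array, 246 names were detected on all 12 arrays and 253 on none. Of the members, 25, 21 and 17 were detected in control retina 1, 2 and 3 and 29, 33 and 25 in the myopic retina. Control sclera arrays had 8, 8 and 7 of them and myopic sclera arrays 7, 5 and 5. Over all names the retina arrays also had more detections, 353 to 401 against 274 to 317 in the sclera, whose arrays were dimmer. The retina groups met at 25, the number on control retina 1 and on myopic retina 3.

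The family's summed signal was 3784, 702 and 401 in control retina 1, 2 and 3 and 4411, 6720 and 2634 in the myopic retina. As a share of all miRNA signal this was 0.619%, 0.112% and 0.0560% in the control retina and 0.644%, 0.807% and 0.445% in the myopic retina. The shares in the control sclera were 0.0468%, 0.0626% and 0.0533%, and those in the myopic sclera 0.0533%, 0.0504% and 0.0372%. Control retina 1 lay among the myopic retina arrays, above myopic retina 3, whereas control retina 2 and 3 lay below all of these. The share on control retina 3 lay within the range of the sclera arrays. In dissected tissue, fewer cells of a type and less RNA per cell cannot be told apart.

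**Figure D1:**
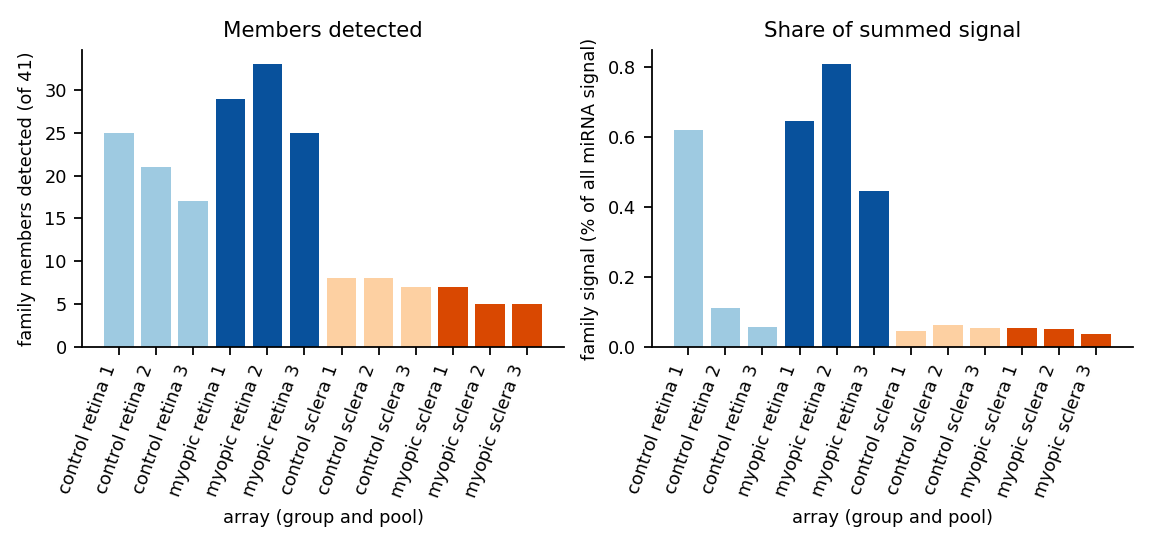
Number of family members detected (left, of 41) and the family's share of all miRNA signal in percent (right) on each of the 12 arrays, 1 bar per array, coloured by group. Control retina 1 had a share of 0.619%, close to myopic retina 1 (0.644%), while control retina 2 and 3 were at 0.112% and 0.0560%.

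The member with signal on every array and a repeat of class 1, miR-669n, had total signals of 704, 125 and 72.6 in the control retina and of 741, 1000 and 534 in the myopic retina. The control sclera gave 23.1, 21.7 and 18.8 and the myopic sclera 15.0, 6.79 and 12.6. Control retina 1 was as bright as the myopic arrays and lay above myopic retina 3, so the retina groups overlapped. In total signals all retina arrays lay above all sclera arrays. After quantile normalization control sclera 3 (log2 signal 6.415) lay above control retina 3 (6.031). Between control retina and control sclera the member was not called (log2 difference 1.57, limma adjusted p = 0.0688).

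MiR-466h-5p, which shares its seed with miR-466j, had signals of 244, 51.3 and 11.4 in the control retina and of 321, 469 and 227 in the myopic retina, and was undetected on all sclera arrays. Here too control retina 1 exceeded myopic retina 3, and control retina 2 and 3 were the low arrays. MiR-669b-5p had 170, 35.3 and 10.1 in the control and 242, 377 and 161 in the myopic retina. MiR-669l-5p had 172, 38.4 and 14.2 in the control and 223, 368 and 143 in the myopic retina. Both followed the order of miR-466h-5p and were undetected in the sclera.

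MiR-669e-5p had 173, 36.6 and 7.86 in the control retina and 239, 374 and 150 in the myopic retina. MiR-466f-5p had 45.0, 3.93 and no detection in the control retina, and 82.3, 121 and 42.5 in the myopic retina. MiR-669o-5p had 107, 17.1 and no detection in the control retina, and 157, 258 and 95.1 in the myopic retina. These 3 were undetected on all sclera arrays, and each was higher on control retina 1 than on myopic retina 3.

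MiR-466f-3p, of class 2, had signals of 205, 5.19 and 4.07 in the control retina and of 191, 298 and 78.7 in the myopic retina. The control sclera gave 11.1, 18.6 and 8.86 and the myopic sclera 15.2, 13.8 and 5.16. Control retina 2 and 3 thus lay at or below the level of this probe set in the sclera, and control retina 1 lay between myopic retina 1 and 2. MiR-467f had 224, 23.4 and 13.1 in the control retina and 208, 310 and 88.1 in the myopic retina. The control sclera gave 51.1, 87.4 and 40.8 and the myopic sclera 66.5, 59.9 and 32.7. Its lowest arrays of all were control retina 3 and control retina 2, below every sclera array.

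MiR-466i-3p had 172, 8.84 and no detection in the control retina, and 164, 255 and 68.2 in the myopic retina. The control sclera gave 16.5, 37.4 and 12.3 and the myopic sclera 30.3, 27.0 and 16.1. Control retina 2 and 3 were again the low arrays. MiR-669f-3p differed less, with 157, 76.4 and 91.5 in the control retina and 157, 217 and 98.3 in the myopic retina. The control sclera gave 39.3, 51.2 and 11.4 and the myopic sclera 32.5, 34.5 and 21.3, so in total signals the retina groups overlapped and the tissues did not. After quantile normalization the tissues overlapped as well, with log2 signals of 6.11 on control retina 2 and 6.38 on control sclera 2.

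Members without a repeat run included both kinds of pattern. MiR-467c-5p had 129, 27.8 and 8.45 in the control retina and 210, 314 and 132 in the myopic retina, and it was the 1 member of 33 whose total signal was higher on every myopic than on every control retina array, by a narrow margin (132 against 129), beside 14 of 443 names. MiR-467b-5p had 28.0, 36.1 and 41.2 in the control retina and 31.4, 48.1 and 27.8 in the myopic retina. MiR-467e-5p had 26.6, 27.9 and 30.9 in the control retina and 29.3, 49.6 and 26.2 in the myopic retina. In these last members control retina 2 and 3 were not low, control and myopic arrays overlapped, and control retina 1 was the lowest control.

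**Figure D2:**
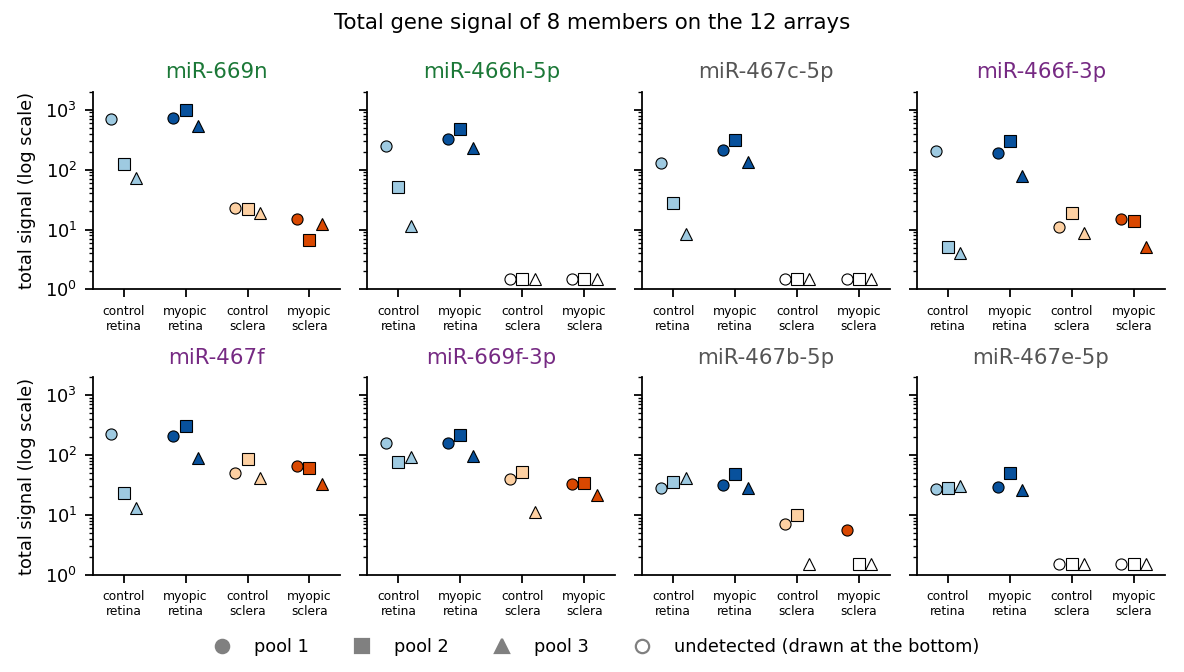
Total gene signal (log scale) of 8 members on the 12 arrays, by group, with a symbol for each pool number and open symbols at the bottom for arrays without detection. In miR-669n, miR-466h-5p, miR-467c-5p, miR-466f-3p and miR-467f control retina 1 lies near the myopic retina arrays and control retina 2 and 3 lie lower, whereas miR-467b-5p stays between 27.8 and 48.1 on all retina arrays.

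In 23 of the 33 members with a detection, control retina 1 and every myopic retina array lay above control retina 2 and 3, beside 93 of all 443 names. After quantile normalization, which gives all arrays the same distribution of signals, 4 of the 33 were higher on every myopic than on every control array, beside 23 of 443 names. In total signals, myopic retina 2 was the highest myopic array in all 33 and in 415 of 443 names, and myopic retina 3 the lowest in all 33 and in 369 of 443, ties at no detection included. After quantile normalization myopic retina 2 was the highest in 32 of the 33, but in only 165 of 443 names. Likewise myopic retina 3 was then the lowest in 31 of the 33 and in 200 of 443 names.

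**Figure D3:**
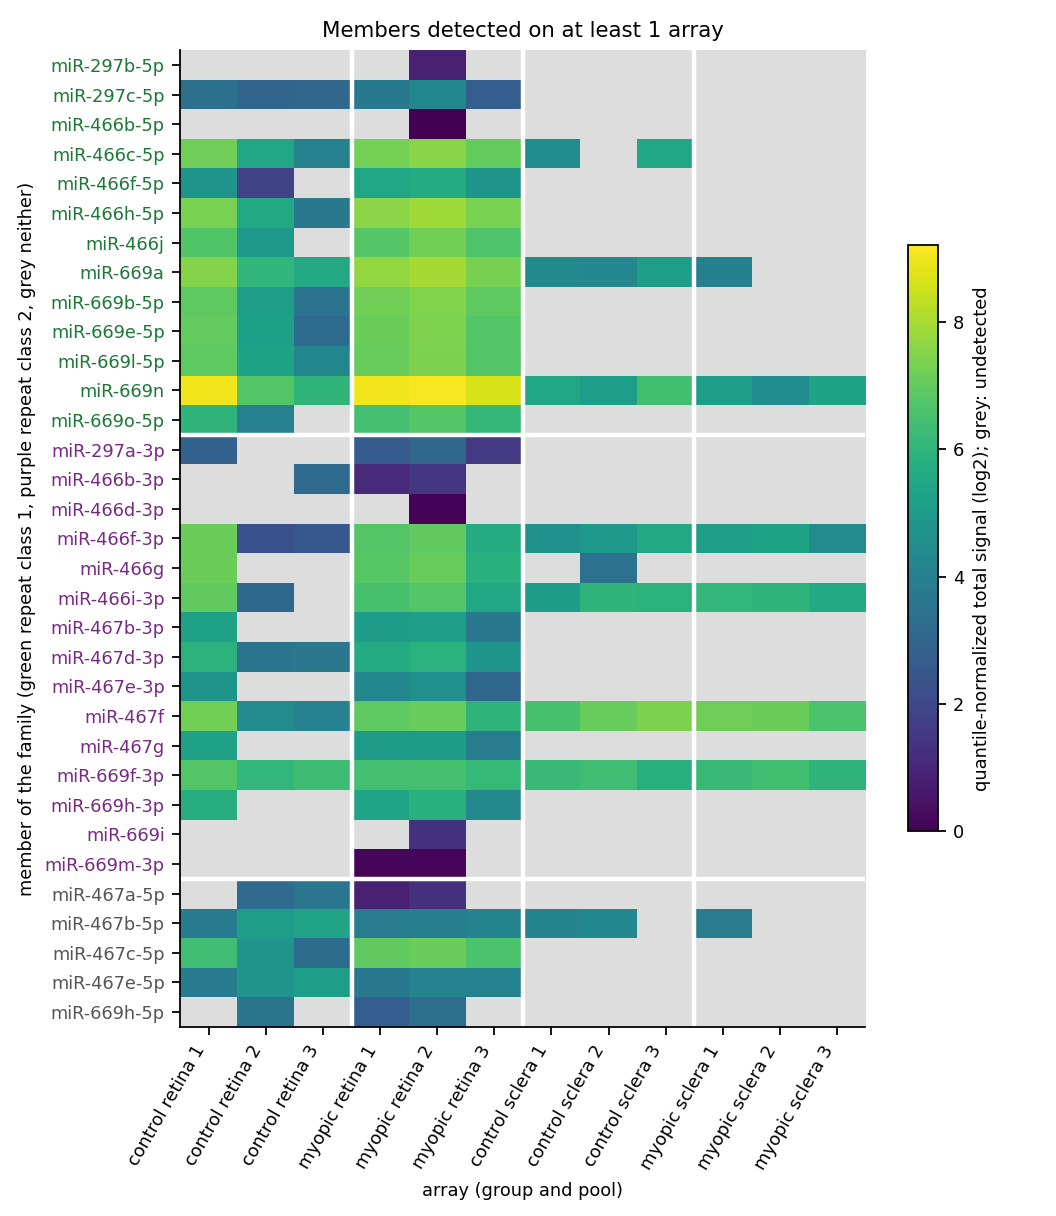
Quantile-normalized total signals (log2 colour scale, grey where undetected) of the 33 members detected on at least 1 array, across the 12 arrays. Names in green hold repeat class 1 (CACACA or ACACAC), those in purple repeat class 2 (GTGTGT or TGTGTG) and those in grey neither, and control retina 2 and 3 stand apart from the 4 other retina arrays in most members of both classes.

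The myopic and control retina arrays of a slide were set side by side in total signals, not corrected for brightness or place on the slide. For the 15 members detected on all 6 retina arrays, the ratio of myopic to control signal had a median of 1.22 on slide 1, with a range from 0.932 to 1.63. It was 9.15 on slide 2, from 1.33 to 57.4, and 7.35 on slide 3, from 0.676 to 20.0. Slide 1 therefore differed from the other slides in most of these members. Over the 329 names of the whole array detected on these 6 arrays, the medians were 1.07, 1.30 and 0.882.

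By class, the 8 members with a class 1 repeat had median ratios of 1.30, 9.13 and 11.6 on slides 1, 2 and 3. The 4 members of class 2 had 0.951, 13.4 and 5.36. The 3 members without a run, miR-467b-5p, miR-467c-5p and miR-467e-5p, had 1.12, 1.78 and 0.846. Of these 3, miR-467c-5p behaved like the repeat-bearing members, with 1.63, 11.3 and 15.6.

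**Figure D4:**
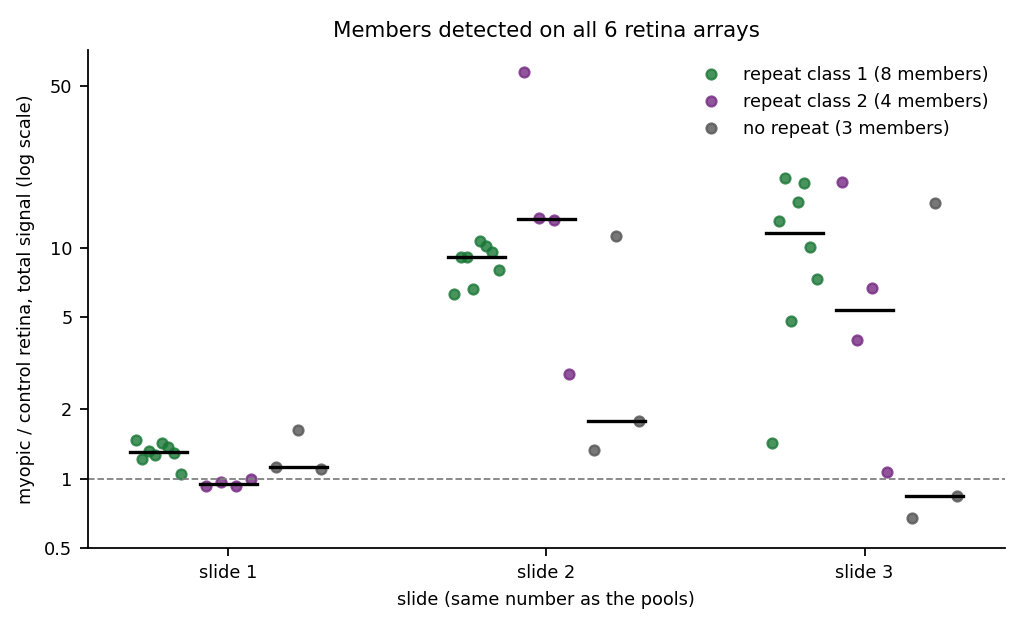
Ratio of the total signal in the myopic retina to that in the control retina of the same slide (log scale) for the 15 members detected on all 6 retina arrays, by repeat class, with a bar at each median and a dashed line at equal signals. The medians of class 1 are 1.30, 9.13 and 11.6 on slides 1, 2 and 3, and on slide 1 no member exceeds 1.63.

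The comparison of myopic with control retina asks whether form deprivation goes with other levels of these miRNAs. For it, total signals under 0.5 were set to 0.5, quantile normalized and transformed to log2, and all 443 names detected on at least 1 array were tested in a single limma fit of the 4 groups. A call has a Benjamini-Hochberg adjusted p under 0.05 and at least a 2-fold difference. By limma, 0 of the 33 members were called, beside 1 of 443 names or 0.226%, and the linear model without moderation of the spread and the fit with the replicate block also called 0. At an unadjusted p under 0.05 with the same fold, limma passed 15 of the 33 members, all higher in the myopic retina, beside 78 of 443 names or 17.6%. That count was 0 with only the 2 groups compared in the fit, 0 with normexp background correction and 4 to 21 without a single array. Of the 33 members, 5 were undetected on every control retina array and entered the test through the myopic retina alone, so their direction was set by that filter.

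The median log2 difference of the 33 members was 1.67, but 0.99 without control retina 3, 2.58 without control retina 1 and 0.09 with normexp. It did not change with members at their bounds where a group had no detection. The median of all 443 names was -0.12, or -0.09 with bounds. The family's median was 0.00 on slide 1, 2.35 on slide 2 and 2.58 on slide 3. By subfamily, the 10 members of miR-466 tested had a median of 2.27, the 11 of miR-669 had 1.58, the 9 of miR-467 had 1.40 and the 3 of miR-297 had 0.61 (0.41 with bounds), and none of these subfamilies had a call. The 13 members of class 1 had a median of 1.72, the 15 of class 2 had 2.15 and the 5 without a run had -0.61. The class 2 median is the value of miR-297a-3p, which was undetected on control retina 2 and 3, so it rests on the floor. The class 2 members detected on all 6 retina arrays had 2.47 (miR-466f-3p), 1.08 (miR-467d-3p), 1.40 (miR-467f) and -0.03 (miR-669f-3p). Bounds leave members undetected on only part of a group at their fitted values, so the classes are not ranked by these medians.

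The scaling moved the median of all names from -0.12 to 0.08 or 0.10 when arrays were scaled by their 75th percentile over detected names or not at all. The family's median relative to that of all names was 1.79 with quantile normalization and 2.22 with either of these. The median of the 5 members without a run changed sign, from -0.61 to between 0.14 and 0.24, with scaling by a 75th percentile or with none.

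The member with the smallest p was miR-467c-5p, with a quantile-normalized log2 signal of 6.88 ± 0.26 (SD, n = 3 pools) in the myopic and 4.80 ± 1.56 (SD, n = 3 pools) in the control retina. Its log2 difference was 2.08 (standard error 0.61, limma adjusted p = 0.134), and 3 of 3 pairs were higher. MiR-466f-5p differed by 3.41 (standard error 1.11, adjusted p = 0.134 from limma) and miR-669b-5p by 2.02 (standard error 0.66, adjusted p = 0.134 from limma), each higher in 3 of 3 pairs. MiR-466f-5p was undetected on control retina 3, so its size rests on the floor. None of these passed, and the spread lay in the control group, where control retina 1 stood next to the myopic arrays.

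The study named 7 members for higher levels in the myopic retina on these same arrays, so their direction here is not independent of that choice. Besides the members above they had log2 differences of 2.06 (miR-466h-5p), 1.98 (miR-669e-5p), 3.44 (miR-669o-5p) and 1.67 (miR-669n), with adjusted p-values of limma from 0.134 to 0.152, and were higher in 3 of 3 pairs except miR-669n, in 2 of 3. MiR-669o-5p was undetected on control retina 3, so the size of its difference rests on the floor. The 3 pairs of miR-466h-5p differed by 0.27, 2.29 and 3.63. Those of miR-669n differed by 0.00, 2.39 and 2.61. In both members pair 1 differed least.

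Members with a log2 difference near or under 0 were few. MiR-669f-3p differed by -0.03 (standard error 0.22, adjusted p = 1.0 from limma) and was lower in 2 of 3 pairs, and its sign turned with scaling by a 75th percentile (0.43 or 0.52) and without normalization (0.54). MiR-467b-5p differed by -0.81 (standard error 1.60, adjusted p = 0.868 from limma), and miR-467a-5p by -1.56 (standard error 1.08, adjusted p = 0.371 from limma), each lower in 2 of 3 pairs, where the size of miR-467a-5p rests on the floor. With scaling by a 75th percentile miR-467b-5p stood at -0.10 or -0.01 and miR-467a-5p at -0.30 or -0.21, and without normalization at 0.01 and -0.17, so the sign of miR-467b-5p turned. MiR-467e-5p differed by -0.61 (standard error 0.30, adjusted p = 0.203 from limma) and was lower in 3 of 3 pairs, and its sign turned with scaling by a 75th percentile, where it was 0.14 or 0.22, and without normalization, where it was 0.24.

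The number of calls depended on control retina 1. Without it, limma called 21 of the 33 members, 19 higher and 2 lower in the myopic retina, beside 122 of 442 names or 27.6%. The 2 lower were miR-467a-5p (log2 difference -2.89, adjusted p = 0.00389) and miR-467e-5p (-1.05, adjusted p = 0.000777). Among the 21 were 8 members of class 1, 10 of class 2 and 3 without a run, and 6 of class 2 then had no detected control array, so that the floor sets their size. MiR-467c-5p differed by 2.91 (standard error 0.38, adjusted p = 0.000627 from limma) and miR-669n by 2.58 (standard error 0.42, adjusted p = 0.00163 from limma) in that fit.

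The lower calls depended on the scaling as well. With arrays scaled by the 75th percentile of the miRNAs found on each of the 12 arrays, an alternative chosen after seeing the data, the fit without control retina 1 called 20 members, all higher in the myopic retina, beside 72 of 442 names. In it miR-467a-5p differed by -1.56 (adjusted p = 0.412 from limma) and miR-467e-5p by 0.11 (adjusted p = 0.988 from limma). Weights for each array, estimated from its spread, gave 22 calls, 21 higher and 1 lower, beside 146 of 443 names. Control retina 1, 2 and 3 had weights of 0.0793, 7.91 and 0.249, so the control retina mean rested mostly on control retina 2. Control sclera 3 had a low weight too, 0.0915. Without myopic retina 3 there was 1 call, miR-669m-3p, beside 13 of 443 names. It was detected on myopic retina 1 and 2 alone, where its normalized values tied, and stood at the floor elsewhere, so that fit had no spread for it and its direction was set by the filter.

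In the sclera most of the family was below detection: 24 of the 33 members were undetected on all 6 sclera arrays, and their difference of 0.00 is that of the floor. By limma 0 of 33 were called between myopic and control sclera, beside 0 of 443 names or 0.0%, and the replicate block and the model without moderation also gave 0. At an unadjusted p under 0.05 with a 2-fold difference, 2 members passed, both lower in the myopic sclera, beside 3 of 443 names or 0.677%.

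These 2 members hold class 1 repeats. MiR-669a had signals of 8.51, 9.71 and 6.33 in the control sclera, and of 6.39 and then no detection on myopic sclera 2 and 3. Its log2 difference was -3.94 (standard error 1.19, limma adjusted p = 1.0), and 3 of 3 pairs were lower. MiR-466c-5p had signals of 9.79 and 8.45 on control sclera 1 and 3 and was undetected on control sclera 2 and on all myopic sclera arrays, with a difference of -4.00 (standard error 1.47, adjusted p = 1.0 from limma, 2 of 3 pairs lower). Both sizes rest on the floor.

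Without control sclera 2 miR-466c-5p was called lower (log2 difference -6.05, adjusted p = 0.00630 from limma). Without myopic sclera 1, miR-669a was called lower (log2 difference -5.67, adjusted p = 0.00200 from limma). In both fits no myopic sclera array had the member detected. MiR-467b-5p, the next by p, was detected on control sclera 1 and 2 and on myopic sclera 1 with signals of 7.01, 9.93 and 5.59.

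For members detected on all 6 sclera arrays the log2 difference was 0.06 (standard error 0.22) for miR-669f-3p, -0.01 (standard error 0.73) for miR-467f, -0.09 for miR-466f-3p, 0.26 (standard error 1.55) for miR-466i-3p and -0.73 (standard error 0.68) for miR-669n, and the sign turned in at least 1 alternative for each except miR-669n. In total signals all myopic sclera arrays of miR-669n lay below all control ones, as for 1 of 33 members and 8 of 443 names. The normalized values of miR-669n overlapped. It was lower in 3 of 3 pairs, by 0.39, 0.68 and 1.11 on the log2 scale. The standard errors are those of a fit that shares the spread of all 4 groups.

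The difference between the response of the retina and that of the sclera was tested in the same fit. By limma 0 of 33 members were called, beside 1 of 443 names or 0.226%, and at an unadjusted p under 0.05 with a 2-fold difference 4 members passed, beside 26 of 443 names or 5.87%. The model without moderation and the replicate block gave 0. The 4 were miR-669a (5.24), miR-466c-5p (5.71), miR-669n (2.39) and miR-467c-5p (2.08), with an adjusted p of 0.380 from limma for each. The sizes of miR-669a and miR-466c-5p rest on the floor. As miR-467c-5p was undetected on all sclera arrays, its value is simply its difference between myopic and control retina. Without control retina 1 there were 21 calls, beside 112 of 442 names, and with array weights 24, beside 156 of 443. For the 24 members undetected on all sclera arrays, the difference of responses equals that between myopic and control retina. These counts are therefore not separate from those of the retina comparison. Fits without myopic retina 3, without control sclera 2 or without myopic sclera 1 gave 1 call each, beside 9, 2 and 2 over all names.

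Between control retina and control sclera, limma called 12 of the 33 members, all higher in the retina, beside 224 of 443 names or 50.6%. With normexp it called 0, beside 60 of 443, and with only the 2 groups compared in the fit 8, beside 177 of 443. Under 26 alternatives miR-466f-5p lost its call in 19, miR-467a-5p in 17 and miR-669o-5p in 8. The family's share of calls was 36.4%, all higher, whereas the 224 calls over all names were 122 higher and 102 lower in the retina. These shares therefore do not compare the same directions. The 24 members undetected on all sclera arrays entered the test through the retina alone, so in both tissue comparisons their direction was set by that filter. All 12 were undetected on every control sclera array, so only a lower limit can be given, and 8 of them were at least 2-fold higher by that limit, or 6 without control retina 1. The limit sets the geometric mean of the total signals on the retina arrays against the lowest detected total signal of each sclera array, or the summed total probe signal of the member's own undetected probes where that was higher, after scaling by the 75th percentile. It holds for total signals only, not for the processed signals of single probes. Leaving retina arrays out of the limits was chosen after seeing the data.

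By this limit in total signals, miR-466h-5p was at least 8.36-fold higher in the control retina than in the control sclera, miR-467e-5p at least 3.24-fold and miR-297c-5p at least 1.72-fold. Without control retina 1 these limits were 3.82, 3.30 and 1.24. Their p-values compare retina signals with the floor and are not given. Control retina 1, 2 and 3 had 20.1, 8.57 and 7.22 for miR-297c-5p.

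The family's median log2 difference between control retina and control sclera was 2.08, but 0.00 with members at their limits, so the fitted median is set by the floor. The medians of all names were 0.30 and 0.00. Of the 33 members, 19 were detected in the control retina alone and 5 in neither group. Among the 9 detected in both groups, 3 were fitted lower in the retina, miR-467f at -1.74 (adjusted p = 0.0630 from limma), miR-466i-3p at -2.64 (adjusted p = 0.167 from limma) and miR-466f-3p at -1.06 (adjusted p = 0.409 from limma). MiR-466i-3p was undetected on control retina 3, so its size rests on the floor. On slide 1 these differed by 0.71, 1.88 and 2.45 and on slide 2 by -2.60, -2.92 and -2.60, and slide 3 lay on the side of slide 2. Without control retina 1 limma called all 3 lower in the retina, beside 9 members higher, and with array weights it called the same 3 lower and 15 members higher. Without normalization the sign of miR-466f-3p turned (0.41), and with normalization within each tissue those of miR-466f-3p (1.17) and miR-467f (0.16) did.

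Between myopic retina and myopic sclera, limma called 20 of 33 members, all higher in the retina, beside 261 of 443 names or 58.9%. With normexp it called 1, beside 66 of 443. The share of the family was 60.6%, all higher, whereas the 261 calls over all names were 144 higher and 117 lower in the retina. Here too the shares do not compare the same directions. Of the 20, 18 were undetected on every myopic sclera array, and all 18 were at least 2-fold higher by the limit, or 17 without myopic retina 1 or 2. MiR-466h-5p was at least 50.8-fold higher, miR-669l-5p at least 35.6-fold and miR-467c-5p at least 32.2-fold by the limit. Without myopic retina 2, the brightest, these limits were 46.4, 30.6 and 28.7.

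MiR-669n was the member detected on all 6 arrays that was called, at 8.93 ± 0.25 (log2, SD, n = 3 pools) in the myopic retina and 4.97 ± 0.44 (log2, SD, n = 3 pools) in the myopic sclera. Its log2 difference was 3.96 (standard error 0.68, limma adjusted p = 0.000573), and 3 of 3 pairs were higher. MiR-669a, detected on 1 myopic sclera array, differed by 7.01 (standard error 1.19, adjusted p = 0.000529 from limma), a size that rests on the floor. MiR-669f-3p differed by 0.18 (standard error 0.22, adjusted p = 0.471 from limma) and miR-467f by -0.33 (standard error 0.73, adjusted p = 0.694 from limma), and the sign of miR-467f turned with scaling by the 75th percentile of the miRNAs found on each of the 12 arrays (0.63) and with each other scaling. In 5 of 27 alternatives miR-669f-3p gained a call, higher in the retina, and its log2 difference reached up to 2.38. The family's median was 4.95, or 2.97 with members at their limits, and that of all names 0.36, or 0.05 with limits. The 2 tissue comparisons share no array.

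Each member is read by 1 to 4 probes of different length, from 13 to 22 bases, and the processed signals of the single probes can be followed across the arrays. In both probes of miR-669n control retina 1 and the myopic arrays lay above control retina 2 and 3. Its shorter probe gave 501, 85.3 and 48.9 in the control retina and 527, 729 and 349 in the myopic retina. Its longer probe gave 554, 103 and 59.5 in the control retina and 592, 785 and 430 in the myopic retina.

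In all 4 probes of miR-466f-3p control retina 1 and the myopic arrays lay above control retina 2 and 3. Its longest probe gave 232, 15.6 and 12.3 in the control retina and 227, 343 and 94.5 in the myopic retina. Its shortest gave 82.1, 0.644 and -1.32 in the control retina and 76.2, 118 and 28.1 in the myopic retina. Of the 61 probes of the 23 members with control retina 1 and all myopic arrays above control retina 2 and 3, 60 had this order on their own. The exception was the shorter probe of miR-669f-3p. Of the 28 probes of the other 10 members tested, 8 had it. Because the 23 members were picked by total signals built from these same probes, the agreement is no separate evidence.

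Many probes of different members are nearly equal. Of the 820 pairs of members, the longest probes of 25 differed by a single base over at least 15 aligned bases and those of 5 had no difference over the bases they share, and 30 members were in such a pair. The pairs below are shown because their signals across arrays can be set side by side. Capitals mark the base that differs, and positions are counted from 1 at the 5′ end of the first probe of each pair, so T13A means T at position 13 of the first probe and A in the second.
miR-467e-5p (T13A): acatatacatgcTcacact
miR-669l-5p: acatatacatgcAcacac
miR-467b-5p (G13C): catatacatgcaGgcact
miR-467c-5p: cacatatacatgcaCgcac
miR-297c-5p (T6C): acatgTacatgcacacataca
miR-669b-5p: acatgCacatgcacaca
miR-466a-5p (T11C): tatgtacatgTacacacacat
miR-466c-5p: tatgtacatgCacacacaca

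On control retina 1, 2 and 3, miR-467e-5p stood at 53.7%, 56.1% and 62.3% of its highest array and miR-669l-5p at 46.7%, 10.4% and 3.85%. The pair T13A thus parted on control retina 2 and 3 and was close on myopic retina 1. On control retina 1 and 3, miR-467b-5p stood at 58.3% and 85.6% and miR-467c-5p at 41.2% and 2.69%. On all 3 control retina arrays, miR-297c-5p stood at 37.2%, 15.8% and 13.3% and miR-669b-5p at 45.1%, 9.38% and 2.69%.

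MiR-466f-3p and miR-466i-3p, with no difference over 17 aligned bases, stood at 68.7% and 67.5% on control retina 1, at 64.2% and 64.2% on myopic retina 1 and at 26.4% and 26.7% on myopic retina 3. On control retina 2 miR-466f-3p stood at 1.74% and miR-466i-3p at 3.47%, and on control retina 3 at 1.37% and undetected, so they were close on control retina 1 and the myopic retina arrays. MiR-466a-5p was detected on 0 arrays and miR-466c-5p on 8. Probes that differ by a single base were thus not read alike in several pairs, whereas other such pairs ran close. The pair G16A had 41.2%, 8.87% and 2.69% (miR-467c-5p) and 46.7%, 10.4% and 3.85% (miR-669l-5p) on control retina 1 to 3. The pair C6A had 45.1%, 9.38% and 2.69% (miR-669b-5p) and 46.4%, 9.80% and 2.10% (miR-669e-5p) on these arrays. The 25 pairs with a single difference were not tallied for this, and cross-hybridization was not tested.

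**Figure D5:**
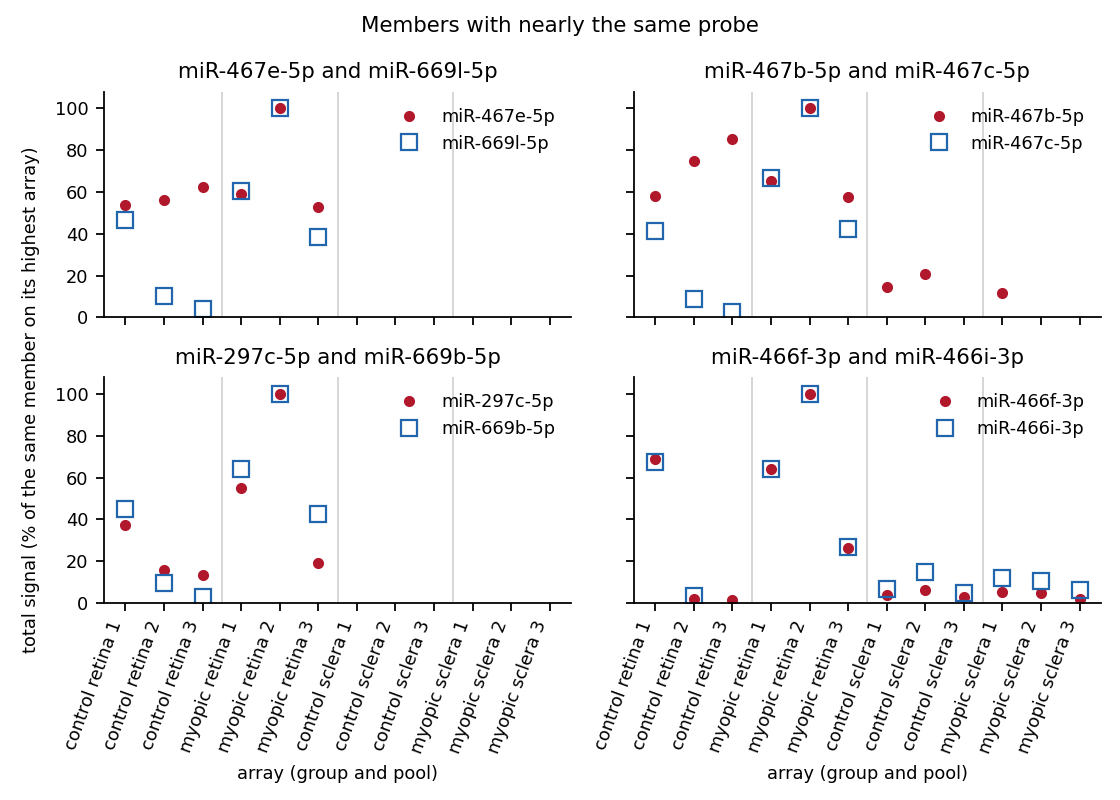
Total signal of members with nearly the same probe as a percentage of the member's own highest array, on the 12 arrays, with no symbol where undetected. MiR-467e-5p stands at 56.1% and 62.3% on control retina 2 and 3 where miR-669l-5p stands at 10.4% and 3.85%, and miR-466f-3p and miR-466i-3p nearly coincide on control retina 1 and the myopic retina arrays.

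Names outside the family with the same letters were followed as a description. Of the 11 other names with class 1 letters 10 were tested, and their median log2 difference between myopic and control retina was 1.55, with 0.05, 2.20 and 2.51 on slides 1, 2 and 3 and 0 calls by limma. Of the 6 other names with class 2 letters, 2 were tested, with differences of -0.34 and 2.44. Values lower on slides 2 and 3 in the control than in the myopic retina thus also occurred in the median of class 1 names beyond the family, and what the names share besides these letters was not tested. Between control retina and control sclera, 5 of the 10 were called higher and 2 lower in the retina, beside 122 higher and 102 lower of 443 names.

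As other lists, 25 names of the X-linked germline cluster, also expanded in rodents, and 14 names of the pluripotency cluster miR-290 to miR-295 were looked up. Of the germline names 21 were detected nowhere, and the 4 tested had a median of 1.74 between myopic and control retina, or 0.61 with bounds, and 0 calls by limma. Of the pluripotency names 5 were tested, with a median of -0.76 and 0 calls by limma. Between control retina and control sclera, 1 germline name was called higher and 1 lower, and 3 and 2 of the pluripotency names. Over all 443 names these counts were 122 and 102. In the sclera comparison neither list had a call.

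The tissue labels were checked with marker miRNAs. Of 11 retina and neuron names (arms of miR-183, miR-182, miR-96, miR-124, miR-9 and miR-181a) 10 were detected, and all 10 were called higher in the retina in both tissue comparisons. Their summed signal was 216163, 228972 and 281992 in the control retina and 258940, 317426 and 212900 in the myopic retina. Sclera controls gave 11744, 14234 and 1033 and the myopic sclera 7664, 3754 and 6535. The most abundant was miR-124-3p and miR-181a-2-3p was undetected throughout. The sum was highest on control retina 3 among the control retina arrays and on myopic retina 2 among the myopic ones.

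Of 7 names for fibroblasts and smooth muscle of the sclera (arms of miR-143, miR-145, miR-199a and miR-214), 5 were called lower in the retina in both tissue comparisons and miR-145-3p was undetected. Their summed signal was 247, 159 and 373 in the control retina and 326, 459 and 267 in the myopic retina. Sclera controls gave 11446, 14704 and 4999 and the myopic sclera 12257, 10272 and 8972. The most abundant was miR-199a-3p. MiR-145-5p of this list was the 1 name called between myopic and control retina, lower in the myopic retina. It had signals of 7.38, 8.01 and 11.6 in the control retina and was undetected on all myopic retina arrays. Its log2 difference of -3.85 therefore rests on the floor, and by the limit for groups without detection 0 calls of this comparison were at least 2-fold. MiR-214-5p, singled out after its values were seen, had 137, 23.2 and no detection in the control retina and 221, 305 and 154 in the myopic retina, the order of the repeat-bearing members, and makes up most of the sum on 4 of these arrays. MiR-199a-3p had 36.8, 49.7 and 197 in the control retina and 42.5, 60.9 and 44.3 in the myopic retina, so it was highest on control retina 3.

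All 5 muscle names were called lower in the retina in both tissue comparisons, as were 2 of 3 blood names, and 1 of 2 names of the pigment epithelium was called higher. The muscle list summed to 251, 315 and 498 in the control retina and 355, 534 and 287 in the myopic retina, with miR-133b-3p the most abundant. Within it, and singled out after their values were seen, miR-1a-3p had 42.9, 103 and 181 in the control and 70.9, 90.2 and 60.4 in the myopic retina, highest on control retina 3. MiR-206-3p, whose longest probe holds class 1 letters, had 102, 28.6 and 14.4 in the control and 128, 254 and 94.5 in the myopic retina, the order of the repeat-bearing members. The blood list summed to 279, 318 and 428 in the control and 365, 590 and 390 in the myopic retina, with miR-451 the most abundant. The pigment epithelium list, led by miR-204-5p, summed to 18089, 19764 and 23878 in the control and 18248, 23637 and 18473 in the myopic retina. All 3 sums were highest on control retina 3 among the controls, and their part in the family's differences was not tested.

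The family's values have limits of several kinds. Each group has 3 arrays, and the spread of the control retina comes from a group in which control retina 1 differs from control retina 2 and 3 in most repeat-bearing members. Members with nearly equal probes are not independent measurements, and the repeat classes were formed with the values in view. In the sclera most members lie below detection, so differences there and between tissues are mostly limits. Seeds were known for 13 members only. Deprivation and eye side cannot be told apart, because the right eye was always the deprived one. No other method measured these miRNAs here.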

How the data were processed

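Total RNA was hybridized to 12 one-colour mouse miRNA arrays. The scanner output deposited for every array holds fluorescence intensity units after background subtraction, written, per the file headers, with Feature Extraction 11.0.1.1. The authors also deposited log2 values with quantile normalization (made with Partek 6.6), with 448 entries and a median of 5.74 on each array. They matched 437 names, 30 of the family, and correlated at 0.999 with the values used here. The methods name removal of absent features and outliers for that table without thresholds.

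Total gene signals were floored at 0.5, quantile normalized over 696 names and transformed to log2, so an undetected name stands at -1.0. The 443 names detected on at least 1 array were fitted with limma 3.58.1 (lmFit, eBayes; R 4.3.3, array weights with statmod 1.5.0), with 8 residual degrees of freedom, and p-values were adjusted over all of them. The fit was also run on simulated data with normally distributed noise and no floor. That run does not bear on differences that rest on the floor. Tables and figures were made with Python 3.11.15, numpy 2.4.6, pandas 2.3.3 and matplotlib 3.10.9. Limits for groups without detection used signals scaled by the 75th percentile, with 0.5 for undetected arrays of the brighter group. Where a list's median is given with bounds, a member without a usable limit counts as 0.

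The arrays of a pool number share a slide, and by the labels a mouse. Deviations from the group means, across 246 miRNAs, correlated at 0.376, -0.464 and 0.586 between the retina arrays and at -0.138, -0.156 and -0.00148 between the sclera arrays of a pool number. The members and lists were chosen with earlier results of these data known. Members named are the 5 with the highest mean, the 7 named by the study, up to 5 per direction with the largest change among calls detected on all 6 arrays and the same in 3 pairs, the 3 with the smallest p per comparison and those detected on all 12 arrays; others were chosen after their values were seen. No array was left out. The alternatives comprised 15 other settings and 12 fits without a single array.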

Additional observations from a re-analysis of the deposited data

How the results depend on the processing

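Counts of family calls were recomputed under 15 other settings and 12 fits without a single array, and 1 setting was chosen after seeing the data. Between myopic and control retina the count was 0 except with array weights, whose estimation stopped before it converged (22), without control retina 1 (21), without myopic retina 3 (1) and, chosen after seeing the data, with 75th percentile scaling and without control retina 1 (20, with a family median of 3.26). Fits without a single array ranged from 0 to 21. The family median of 1.67 ranged from 0.99 to 2.58 in these fits and was 0.0928 with normexp background correction (offset 50).

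Between myopic and control sclera the count was 0 to 1 in fits without a single array, with 1 without control sclera 2 or myopic sclera 1, and 0 otherwise. For the difference between the responses it was 0, but 24 with array weights and 0 to 21 without a single array. Between control retina and control sclera 12 became 0 with normexp. Over names detected on all 12 arrays it was 2 of 4 (1 higher, 1 lower), beside 128 of 246 names. The count was 14 with the 75th percentile over names detected on an array, 15 with processed spot signals and 16 without normalization. Normalization within each tissue gave 17, and these settings called 254 to 286 of 443 names. In this comparison fits without a single array gave 8 to 12, with 8 without control retina 2 or any single control sclera array. Without control retina 1 its 12 calls were 9 higher and 3 lower, and with array weights there were 15 higher and 3 lower, where the 3 were miR-467f, miR-466i-3p and miR-466f-3p. Its family median of 2.08 was -0.40 over those 4 members, 0.0689 with normexp and 1.23 to 2.57 without a single array. Between myopic retina and myopic sclera 20 became 1 with normexp. Over names detected on all 12 arrays it was 1, beside 139 of 246 names. The count was 23 or 24 with the 75th percentile scalings and 24 without normalization or with normalization within each tissue. Array weights gave 26 and processed spot signals 27, and these settings called 278 to 308 of 443 names. Fits without a single array gave 20 to 22.

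With the replicate block the counts were 0, 0, 11 (in place of 12 between control retina and control sclera), 20 and 0, and no other count changed. The pool numbers were paired alike in some pairs only. For the members named, 50 differences gave 1308 values under the alternatives: 1168 kept their direction and side of the threshold, 62 lost the call, 40 gained it and 38 changed sign. Few detected members limit the sclera comparisons, and 3 pools per group limit all of them. The cause of these changes was not tested.

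The 38 sign changes belong to differences that were not called. Between myopic and control retina, miR-669f-3p (-0.03) was 0.431 and 0.518 with scaling by the 75th percentile over miRNAs detected on all 12 arrays or over names detected on an array, 0.538 without normalization, 0.420 with processed spot signals, 0.000985 with normexp, 0.319 with array weights and -0.171 to 0.157 without a single array. MiR-467e-5p (-0.61) was 0.136, 0.223, 0.243 and 0.0990 with the first 4 of these, and miR-467b-5p (-0.81) was 0.00516 without normalization.

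Between control retina and control sclera, miR-466f-3p (-1.06) was 0.414 without normalization, 1.17 with normalization within each tissue and 0.0770 with normexp, and miR-467f (-1.74) was 0.161 with normalization within each tissue. Between myopic retina and myopic sclera, miR-467f (-0.33) was 0.626 and 0.991 with the 75th percentile scalings, 1.82 without normalization, 1.47 with normalization within each tissue and 0.669 with processed spot signals.

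Between myopic and control sclera, miR-467f (-0.01) was 0.0278 with the 75th percentile over names detected on an array, 0.00587 with normalization within each tissue, 0.00683 with the deposited values, 0.194 with array weights and -0.235 to 0.194 without a single array. MiR-669f-3p (0.06) was -0.117 with processed spot signals, -0.0546 with array weights and -0.105 to 0.180 without a single array. MiR-466f-3p (-0.09) was 0.00391 with normexp, 0.211 with array weights and -0.276 to 0.175 without a single array, and miR-466i-3p (0.26) was -0.0394 to 0.434 without a single array.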
